A study of Mus musculus with 4 samples.

Results

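The genes described here are 41 genes of fatty acid uptake, lipolysis and oxidation, listed by symbol, and all 41 were among the 12408 genes measured. RNA of hearts of 3-month-old C57BL/6 mice was sequenced, with 1 library in each of 4 groups. CT mice were WW45 flox/flox, and cKO mice carried in addition the alpha-MHC-CRE transgene, whose promoter is active in cardiomyocytes, so that other heart cells keep the gene. All mice of both genotypes carried the floxed alleles, and no library of Cre alone or of a sham operation was analysed here. The CT baseline and cKO baseline libraries came from hearts under baseline conditions, and the CT TAC and cKO TAC libraries from hearts after 4 weeks of transverse aortic constriction (TAC), a banding operation that makes the left ventricle pump against higher pressure.

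The adult heart draws most of its energy from fatty acids. Lipoprotein lipase frees them from circulating triglyceride at the capillary wall, and CD36 and the fatty acid-binding proteins carry them into and through the cell, where they are either stored in lipid droplets or bound to coenzyme A. The carnitine shuttle then moves the acyl groups into mitochondria, where beta-oxidation shortens them step by step. Many of these genes are known targets of the nuclear receptor PPAR alpha, and the program is known to decline in hypertrophied and failing hearts.

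The libraries held between 1587840 reads (cKO baseline) and 2796547 reads (CT baseline), recovered from the deposited values, which are given below as CPM (reads scaled to library size). The median member had 588.5 to 1381 reads per library against 30 to 48 for the median gene, so the members were measured more precisely than most genes. With 1 library per group, and the number of mice behind each not given in the labels, a ratio of 2 libraries compares those libraries and has no replicate check. The intervals given are 95% counting intervals and leave out variation between mice. A member is called past 2-fold where the deposited values are at least 2-fold apart and the interval of the ratio excludes 1. The targeted gene, Sav1 (WW45), stood at 49.3 CPM in CT baseline (interval 41.3 to 58.4) and 39.8 in cKO baseline (30.7 to 50.7). After TAC it was the higher in the library labelled cKO, at 35.4 in CT TAC (27.7 to 44.7) and 46.2 in cKO TAC (36.9 to 57.2). The intervals of CT and cKO overlapped in both states, so Sav1 checks neither cKO label. Genotype directions below compare libraries as labelled. Cardiomyocyte markers, of which 12 of 12 were detected and none was at 0, summed to 145413 CPM at baseline and 150167 after TAC in CT, and to 126742 and 115408 in cKO. Brown adipocyte markers (4 of 6 measured) summed to 816 to 1186 CPM per library and erythroid markers (4 of 7 measured) to 737 to 2242 CPM. The brown adipocyte sum covers Cidea, Cox7a1, Cox8b and Ppargc1a, which is also among the regulators below. Ucp1 and Elovl3 were not among the measured genes, so the sum does not show brown adipocytes in the hearts.

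The promoters of 30 members were matched by symbol in a RefSeq promoter table of build GRCm38.p6, as windows from 250 bases before to 50 after each annotated start. No promoter of the table was found for Lpl, Gpihbp1, Fabp4, Ces1d, Dgat1, Dgat2, Cpt1b, Crat, Decr1, Acaa2 and Acot13. The 3 members that were more than 2-fold lower after TAC in CT hearts and carry the nuclear receptor hexamer AGGTCA before their start are shown, because this hexamer is the unit of PPAR elements. The bases before the start are printed 5′ to 3′ on the gene's strand and stop where an annotated exon or the gene begins, with AGGTCA or its reverse complement in capitals.
Ucp3 (chr7:100472741-100472989, plus strand): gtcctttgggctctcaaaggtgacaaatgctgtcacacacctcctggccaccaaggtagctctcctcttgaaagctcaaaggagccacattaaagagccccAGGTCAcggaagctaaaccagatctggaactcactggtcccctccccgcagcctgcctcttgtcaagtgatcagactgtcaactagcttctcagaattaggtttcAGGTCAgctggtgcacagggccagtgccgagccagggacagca
Plin5 (chr17:56117607-56117798, minus strand): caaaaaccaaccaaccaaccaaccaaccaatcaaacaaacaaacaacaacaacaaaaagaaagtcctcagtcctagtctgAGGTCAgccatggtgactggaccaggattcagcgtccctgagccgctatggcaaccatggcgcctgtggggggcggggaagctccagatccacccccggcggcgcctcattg
Cpt1a (chr19:3323051-3323284, plus strand): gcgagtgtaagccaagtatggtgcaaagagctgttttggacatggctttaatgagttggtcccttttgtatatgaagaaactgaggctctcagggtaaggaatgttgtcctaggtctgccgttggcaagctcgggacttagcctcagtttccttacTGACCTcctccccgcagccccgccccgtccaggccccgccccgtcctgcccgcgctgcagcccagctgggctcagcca
The Cpt1a window lies before an internal start of the gene, within its annotated span, and not before its first base. The Ucp3 promoter held the hexamer in 2 places. An annotated antisense transcript overlaps the start of Ucp3, and whether the counting used strand is not given in the sources. On either strand of the whole window, AGGTCA was present in 9 of the 30 members (30%; Cd36, Plin2, Plin5, Acacb, Cpt1a, Acadm, Acadvl, Echs1 and Ucp3) and in 14.9% of 9522 measured genes. The longer elements searched, the DR1 direct repeat that PPAR binds and TNAAGGTCA, the element of estrogen-related receptors, both of which contain the hexamer, were found in 0 members and in 0.0525% and 0.872% of measured genes. These are matches of letters in a short window and were not tested as binding sites.

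Across the members, CT baseline was the library with the highest level for 31 of 41 genes, against 25.6% of all genes. The lowest level lay in cKO TAC for 21 members (24.9% of all genes), in CT TAC for 12 (26.3%), in cKO baseline for 7 (22.3%) and in CT baseline for 1 (26.5%). The summed level of all members was 47684 CPM at baseline and 36212 after TAC in CT, and 34368 and 35547 in cKO, so the 3 other libraries lay close to each other and below CT baseline. The comparisons of CT TAC and of cKO baseline with CT baseline share that 1 library.

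**Figure D1:**
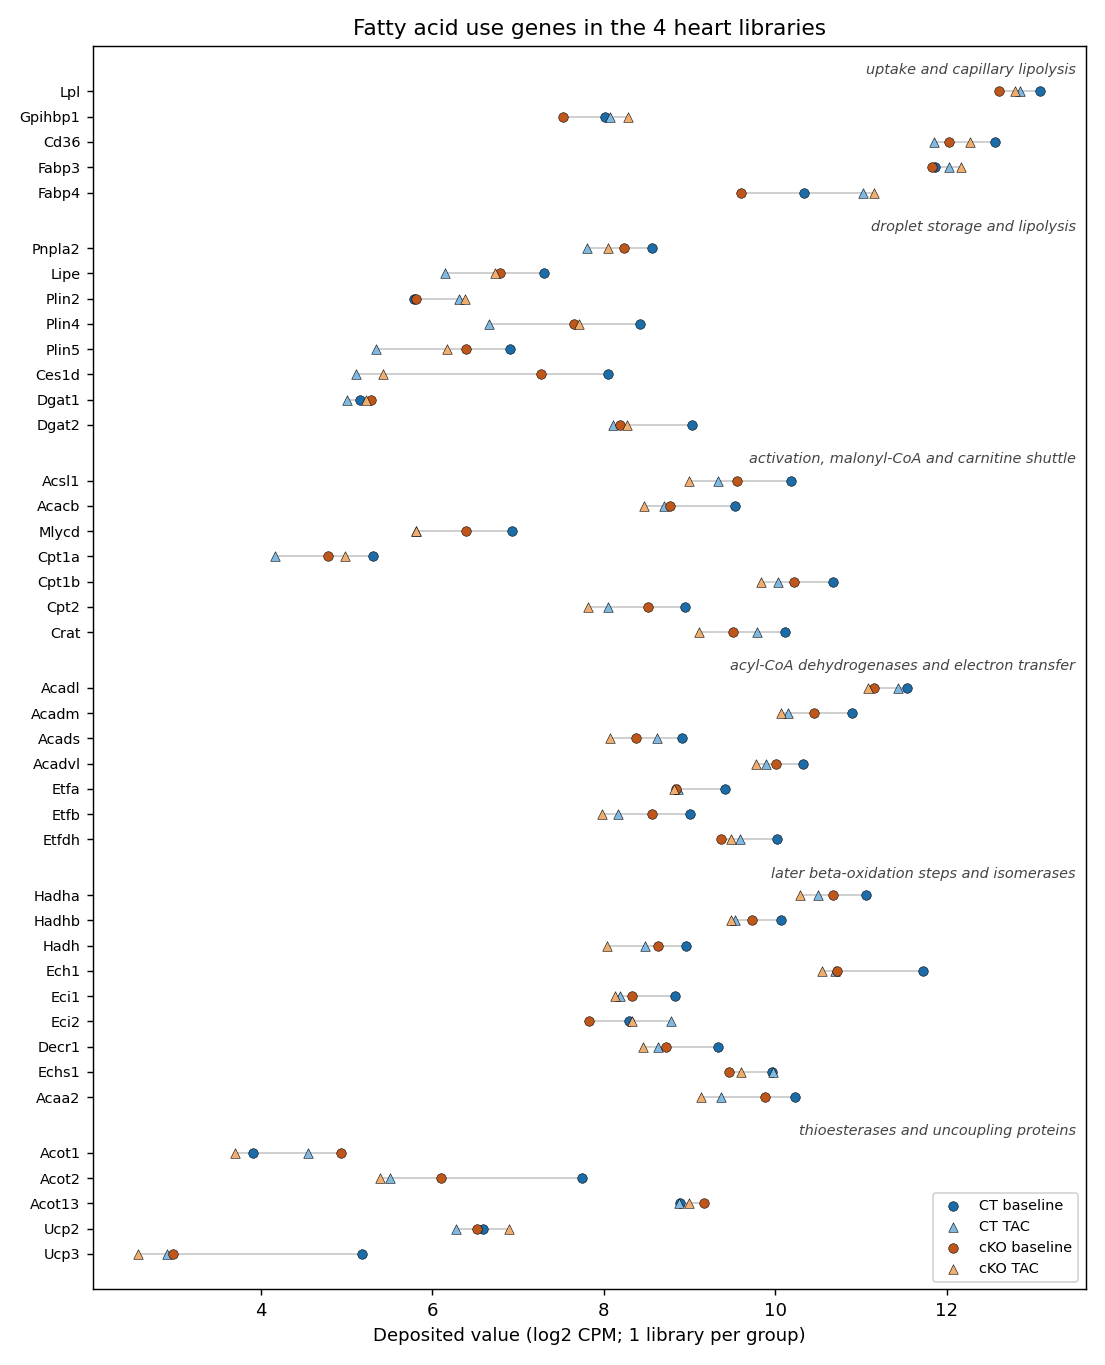
Deposited values (x axis, log2 CPM) of the 41 members, grouped by role, with 1 point per library (circles for baseline, triangles for TAC, blue for CT and orange for cKO). The dark blue circle of CT baseline is the rightmost point in 31 of 41 rows, while in the rows of Fabp3, Fabp4 and Plin2 both triangles lie to the right of both circles.

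The first comparison asked how the hearts of CT mice after TAC differed from those at baseline. Fatty acid genes were lower after TAC: 34 of 41 members had a log2 ratio below 0, against 49.1% of all genes, and the median was -0.64 against 0.01 over all genes. In all, 9 members were past 2-fold lower (Ces1d, Ucp3, Acot2, Plin4, Plin5, Lipe, Cpt1a, Mlycd and Ech1), where 4.68% of all genes were, and 0 were past 2-fold higher, where 6.06% of all genes were. In the cKO libraries the same comparison gave 28 of 41 members below 0, against 50.2% of all genes. The median was -0.19 against -0.004 over all genes. Ces1d and Acot1 were past 2-fold lower, where 2.83% of all genes were, and Fabp4 was past 2-fold higher, where 3.71% of all genes were. Fibroblast markers (12 of 12 detected, none at 0) summed to 1608 CPM at baseline and 6194 after TAC in CT, and to 2846 and 7194 in cKO. Their part in the members' ratios was not tested. In these whole hearts, fewer cells of a type and less RNA per cell cannot be told apart.

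In the uptake group, the lipase and the fatty acid transporter were highest in CT baseline, and the fatty acid-binding proteins were highest after TAC. Lpl (chromosome 8, 68880555 to 68906932), which encodes lipoprotein lipase, had the most reads of the group. It stood at 8754 CPM in the CT heart at baseline and 7420 after TAC, against 6269.7 and 7153 in the cKO hearts. Its 4 levels spanned less than 2-fold, with both TAC libraries between the 2 baseline libraries. Gpihbp1, which anchors the lipase to the capillary endothelium, ranged from 183 CPM in cKO baseline to 311 in cKO TAC. Cd36 (chromosome 5, 17781690 to 17888959), the main fatty acid translocase of the heart, stood at 6046 CPM in the CT heart at baseline and 3706 after TAC, against 4183 and 4934 in the cKO hearts. It was thus lower after TAC in CT (log2 ratio -0.71) and higher in cKO (0.24), both short of 2-fold. Fabp3, the binding protein of cardiomyocytes, ranged from 3642 to 4599 CPM.

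Fabp4 (chromosome 3, 10204342 to 10208616), the binding protein of adipocytes, capillary endothelium and macrophages, went against most of the list. It stood at 1289 CPM in the CT heart at baseline and 2091 after TAC, against 774 and 2279 in the cKO hearts. Both TAC libraries were above both baseline libraries, by 1.62-fold in CT (interval 1.55 to 1.70) and 2.94-fold in cKO (2.76 to 3.14). Capillary endothelial markers (12 of 12 detected, none at 0) summed to 2511 CPM at baseline and 2268 after TAC in CT, and to 2159 and 2222 in cKO. Of 12 adipocyte markers, 4 were measured, among them the members Lpl and Fabp4, and the list summed to 10075 CPM at baseline and 9549 after TAC in CT, and to 7078 and 9460 in cKO, mostly Lpl. The adipocyte marker Cfd had 1, 6, 7 and 0 reads in that order of libraries and Pparg 28.3 to 35.9 CPM. The listed genes Adipoq, Lep, Retn, Cidec, Plin1, Car3, Adig and Slc7a10 were not among the measured genes. Macrophage markers (12 of 12 detected, none at 0) summed to 446 CPM at baseline and 662 after TAC in CT, and to 1023 and 911 in cKO, and the part of these cell types in the Fabp4 values was not tested.

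The droplet group held the lowest ratio of TAC to baseline of the list in each genotype, that of Ces1d. Ces1d (chromosome 8, 93166072 to 93197804), a carboxylesterase that hydrolyses triglyceride, stood at 265 CPM in the CT heart at baseline and 33.9 after TAC, against 154 and 42.4 in the cKO hearts. Both baseline libraries were above both TAC libraries, 7.82-fold in CT (interval 6.09 to 10.2) and 3.63-fold in cKO (2.81 to 4.75). It was the member past 2-fold lower after TAC in both genotypes. Within each state the genotypes were closer, at 1.72-fold lower in cKO baseline (1.49 to 1.996), while in the TAC libraries the interval of the ratio, 0.891 to 1.76, held 1.

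The coat proteins of the droplet differed among themselves. Plin4 (chromosome 17, 56100587 to 56109948) stood at 343 CPM in the CT heart at baseline and 101 after TAC, against 200.02 and 209 in the cKO hearts. CT TAC was 3.40-fold below CT baseline (interval 2.91 to 3.98), and the 2 cKO libraries lay within counting error of each other. Plin4 was the member past 2-fold higher in cKO TAC than in CT TAC (2.07-fold, 1.74 to 2.47). Plin5, which ties droplets to mitochondria in oxidative tissue and lies 1648 bases from Plin4, stood at 119 CPM in the CT heart at baseline and 39.9 after TAC, against 83.8 and 71.2 in the cKO hearts. As for Plin4, CT TAC was the lowest library and CT baseline the highest (2.98-fold below CT baseline, 2.33 to 3.86). Plin2, the coat protein of most cell types, went the other way, with 54.5 and 55.7 CPM in CT and cKO baseline and 78.9 and 82.7 in CT and cKO TAC. Its TAC ratios of 1.45-fold and 1.49-fold had intervals above 1 and were short of 2-fold.

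Among the lipases and the triglyceride synthases, Lipe (hormone-sensitive lipase) stood at 158 CPM in the CT heart at baseline and 70.4 after TAC, against 109.8 and 106 in the cKO hearts. Again CT TAC was the low library (2.24-fold below CT baseline, 1.85 to 2.73). Pnpla2 (adipose triglyceride lipase), the first enzyme of droplet lipolysis, had the same order of extremes, with 376 CPM in CT baseline and 223 in CT TAC. Both lipases carry fractions of reads in the recovered values (called shared reads below), so their values are uncertain. Dgat2, which had the most reads of this group, stood at 522 CPM in the CT heart at baseline and 275 after TAC, against 292 and 307 in the cKO hearts, a single high library and 3 lower ones. Dgat1, the other synthase of triglyceride, stayed between 31.4 and 38.5 CPM, and its interval held 1 in each of the 4 pairs.

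**Figure D2:**
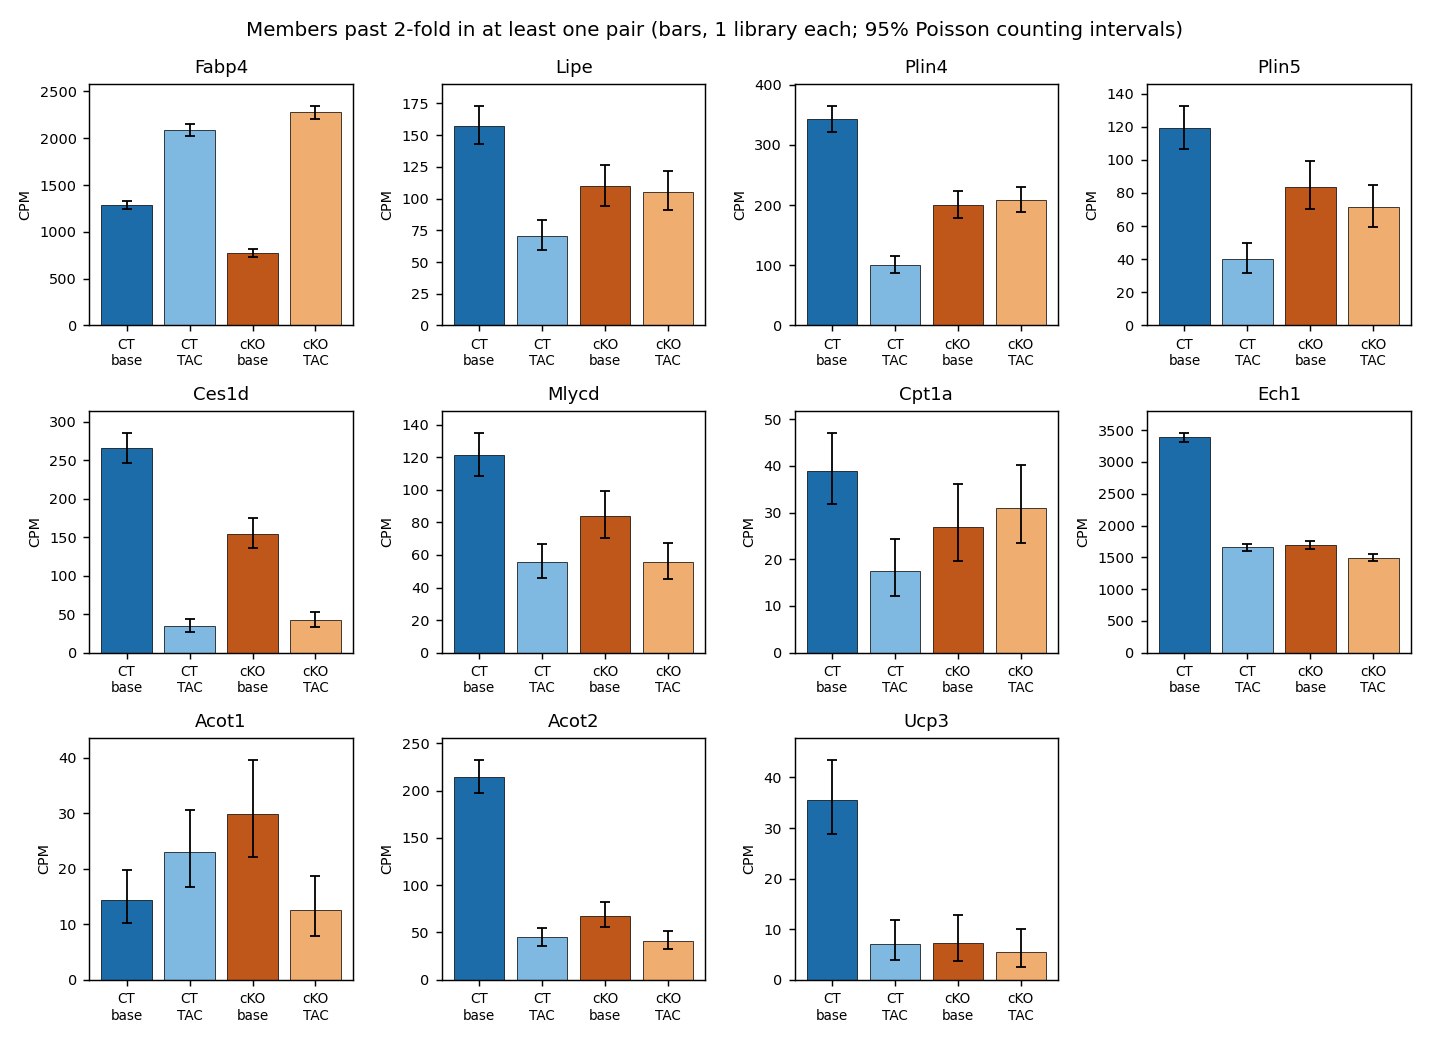
Levels (y axis, CPM, from 0) of the 11 members past 2-fold in at least one of the 4 pairs, 1 bar per library, with 95% Poisson counting intervals. Ucp3, Acot2 and Ech1 are high in CT baseline and low in the other 3 libraries, Plin4, Plin5 and Lipe are lowest in CT TAC, Ces1d is low in both TAC libraries, and Fabp4 is high in both.

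For activation and import, all 7 members were lower in CT TAC than in CT baseline, with a median of -0.85, and 6 of 7 were lower in cKO TAC than in cKO baseline, with a median of -0.40. Cpt1b, the muscle form of the carnitine palmitoyltransferase that sets the rate of mitochondrial entry, had the most reads of the group. It stood at 1639 CPM in the CT heart at baseline and 1048 after TAC, against 1195 and 909.8 in the cKO hearts. Its levels descended in the order CT baseline, cKO baseline, CT TAC, cKO TAC, with neighbours apart by more than counting error. Cpt1a, the liver form, was at much lower read numbers (105 and 35 in CT at baseline and after TAC, 44 and 57 in cKO), at 38.9 and 17.5 CPM in CT and 26.9 and 31.0 in cKO. CT TAC was its low library (2.23-fold below CT baseline, 1.51 to 3.37), and in cKO the interval of the TAC ratio, 0.764 to 1.75, held 1. Cpt2, the inner membrane enzyme of the shuttle, stood at 495 CPM in the CT heart at baseline and 265 after TAC, against 367 and 225 in the cKO hearts. Both TAC libraries were below both baseline libraries, by 1.87-fold in CT (1.69 to 2.07) and 1.63-fold in cKO (1.44 to 1.85).

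The pair of enzymes that sets malonyl-CoA, the inhibitor of fatty acid entry, moved in the same direction. Mlycd, which breaks malonyl-CoA down, stood at 121 CPM in the CT heart at baseline and 55.4 after TAC, against 83.8 and 55.5 in the cKO hearts. The 2 TAC libraries were level, and CT TAC was 2.19-fold below CT baseline (1.76 to 2.74). Acacb, which makes malonyl-CoA at the mitochondrial surface, went from 739 CPM in CT baseline to 355 in cKO TAC, with CT TAC and cKO baseline between them at 415 and 438. Acsl1, the main acyl-CoA synthetase of the heart, had the same extremes, at 1167 and 509 CPM. Crat, which buffers acetyl-CoA as acetylcarnitine, was ordered by genotype instead, with 1109 and 881 CPM in the CT libraries and 730 and 553 in the cKO libraries.

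The acyl-CoA dehydrogenases, which open each turn of beta-oxidation, and the flavoproteins that take up their electrons were lower by smaller ratios. All 7 were below 0 in CT TAC over CT baseline (median -0.44, range -0.84 to -0.11) and 0 of 7 were past 2-fold in any pair. Acadl, the long-chain enzyme with the most reads of the group, stood at 2982 CPM in the CT heart at baseline and 2755 after TAC, against 2273 and 2172 in the cKO hearts. Its log2 TAC ratios were -0.11 in CT and -0.07 in cKO, and both cKO libraries lay below both CT libraries. Acads, the short-chain enzyme, had the same order by genotype, at 483 and 392 CPM in CT and 331 and 269.7 in cKO. Acadm, the medium-chain enzyme, was ordered by TAC, with 1906 and 1406 CPM in CT and cKO baseline and 1138 and 1077 in CT and cKO TAC. Acadvl and Etfb, the beta subunit of the electron transfer flavoprotein, followed Acadm, whereas Etfa, the alpha subunit, was at 685 CPM in CT baseline and between 453 and 467 in the other libraries. Etfdh, which hands the electrons to ubiquinone, ranged from 662 CPM in cKO baseline to 1035 in CT baseline.

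The later steps gave 7 of 9 members below 0 after TAC in each genotype. Ech1 (chromosome 7, 28825338 to 28832239), an isomerase for unsaturated fatty acids, stood at 3389 CPM in the CT heart at baseline and 1656 after TAC, against 1687 and 1489.6 in the cKO hearts. CT baseline alone was high, 2.05-fold above CT TAC (1.97 to 2.13) and 2.01-fold above cKO baseline (1.92 to 2.097). Scaled to total reads, its ratio of cKO baseline to CT baseline was -0.91 (log2) and no longer past 2-fold. Acaa2, the thiolase that closes the cycle, stood at 1204 CPM in the CT heart at baseline and 660 after TAC, against 939.5 and 559.6 in the cKO hearts. Both TAC libraries were below both baseline libraries, 1.82-fold in CT (1.71 to 1.95) and 1.68-fold in cKO (1.55 to 1.82). Hadha and Hadhb, the subunits of the trifunctional protein whose genes lie 272 bases apart, had TAC ratios of -0.56 and -0.54 in CT and of -0.38 and -0.25 in cKO. Echs1 (0.02 in CT, 0.14 in cKO) and Eci2 (0.49 and 0.50) were the members of this group not below 0, and Eci2 had shared reads.

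Among the thioesterases and uncoupling proteins, Ucp3 and Acot2 were high in CT baseline and low in the other 3 libraries. Ucp3 (chromosome 7, 100472991 to 100486432), the mitochondrial carrier of skeletal and heart muscle, stood at 35.6 CPM in the CT heart at baseline and 6.99 after TAC, against 7.34 and 5.44 in the cKO hearts, from 96, 14, 12 and 10 reads in that order. The 3 low libraries could not be told apart at this depth, and CT baseline was 5.09-fold above CT TAC (2.89 to 9.66) and 4.85-fold above cKO baseline (2.65 to 9.71). Its neighbour Ucp2, which lies 6904 bases away and is expressed in many cell types, ranged from 76.9 CPM in CT TAC to 118 in cKO TAC. Acot2 (chromosome 12, 83987861 to 83993877), the mitochondrial acyl-CoA thioesterase, stood at 214 CPM in the CT heart at baseline and 44.9 after TAC, against 67.9 and 41.3 in the cKO hearts. CT baseline was 4.77-fold above CT TAC (3.81 to 6.02) and 3.16-fold above cKO baseline (2.57 to 3.90). Acot1, the cytosolic form, had few reads (39, 46, 49 and 23 in the same order) and was highest in cKO baseline, with 14.5, 23.0, 30.0 and 12.5 CPM. The longest coding transcripts of Acot1 and Acot2 are 94.3% identical over 1330 aligned bases, so reads could be assigned to the wrong gene of this pair, and the Acot1 values are uncertain. Acot13, with the most reads of the group, stood at 473 CPM in the CT heart at baseline and 469.7 after TAC, against 577 and 509.6 in the cKO hearts, and no pair was past 2-fold.

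The size of the TAC ratio differed between the CT and the cKO libraries. The log2 ratio of TAC to baseline was higher in cKO than in CT for 37 of 41 members, against 49.3% of all genes, with a median difference of 0.43 against -0.01. The exceptions were Crat, Hadh, Acot1 and Acot13. The counting interval of the difference lay above 0 for 29 members, where it did for 8.76% of all genes, and below 0 for 1 (Acot1), where it did for 8.95%. Because the members had more reads than most genes, their intervals were narrower, and with 1 library per group the difference has no test. CT baseline, the highest library for 31 of the 41 members, is part of each difference. The baseline comparison of genotypes below rests on that same library. The largest differences above 0 were in Ucp3 (1.87), Plin4 (1.82), Acot2 (1.53), Cpt1a (1.33), Plin5 (1.33), Lipe (1.0996) and Ces1d (1.0995), and Acot1 had the largest below 0 (-1.88). By role, the median difference was 1.05 for the droplet group, 0.71 for the uptake group and 0.18 for the later beta-oxidation steps.

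**Figure D3:**
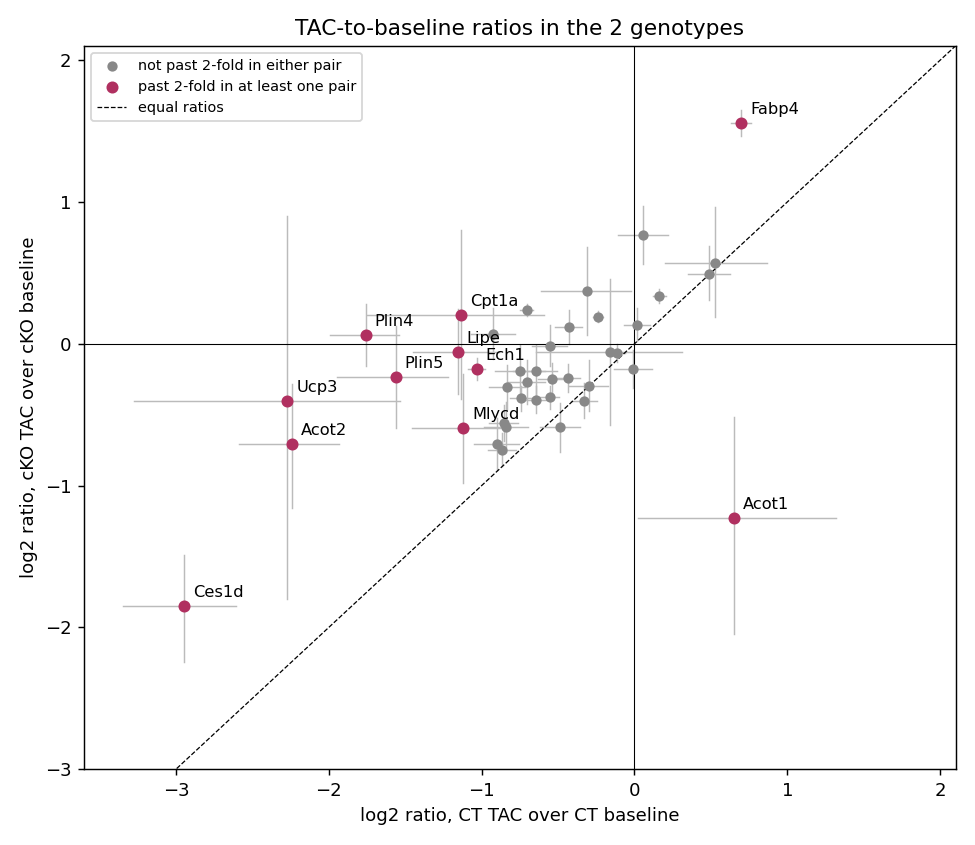
Log2 ratio of TAC to baseline in cKO (y axis) against that in CT (x axis) for each of the 41 members, with 95% counting intervals as grey lines and the members past 2-fold in either pair named. Of the 41 points, 37 lie above the dashed line of equal ratios, with Plin4 at -1.76 in CT and 0.06 in cKO, and Acot1 lies below it at 0.65 in CT and -1.23 in cKO.

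The next comparison set the genotypes against each other. At baseline, 37 of 41 members were lower in cKO than in CT, against 49.6% of all genes, with a median of -0.50 against 0.00. Of these, Ucp3, Acot2 and Ech1 were past 2-fold lower, where 1.81% of all genes were, and Acot1 was past 2-fold higher, where 3.26% were. All 23 members of the 3 groups from activation to the later oxidation steps were below 0, and so were all 5 of the uptake group. Acot1, Acot13, Dgat1 and Plin2 were the members above 0. The lists of neighbouring pathways described below also had medians below 0 in this pair. The median was -0.43 for 16 genes of glucose use (13 below 0) and -0.43 for 16 other mitochondrial oxidation genes (14 below 0). It was -0.37 for 15 regulators (14 below 0), -0.17 for 99 respiratory chain and TCA genes and -0.10 for 14 peroxisomal genes. Lower levels in cKO baseline were thus not particular to the members. After TAC the genotypes lay closer, with 25 of 41 members lower in cKO, against 49.4% of all genes. The median was -0.08 against 0.01 over all genes. It became 0.02 when the libraries were scaled to total reads, against 0.10 over all genes. Here 1 member, Plin4, was past 2-fold higher, where 2.93% of all genes were, and 0 were past 2-fold lower, where 2.08% were. All 8 droplet members were above 0 in that pair (median 0.28). All 16 dehydrogenase, electron transfer and later oxidation members were below 0, where 49.4% of all genes were. The interval of the ratio held 1 for Plin2, Ces1d, Dgat1 and Dgat2 and for Acadm, Etfa, Etfdh, Hadhb and Eci1. Ratios as near 0 as those of Etfa (-0.04), Hadhb (-0.04) and Eci1 (-0.05) also depend on the scaling to total reads. Macrophage and fibroblast markers were also higher in cKO baseline than in CT baseline, at the summed levels given above.

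A fit over all 4 libraries, with additive terms for genotype and TAC, asked which members differed after TAC across both genotypes (limma, 2 TAC against 2 baseline libraries, Benjamini-Hochberg adjustment over 12408 genes). Of the members, 4 fell, where 0.524% of all genes did, and 1 rose, where 1.3% did. Ces1d fell by 2.40 on the log2 scale (SE 0.26, limma adjusted p = 0.0011), Acot2 by 1.48 (SE 0.31, limma adjusted p = 0.0417), Acaa2 by 0.81 (SE 0.17, limma adjusted p = 0.0385) and Cpt2 by 0.80 (SE 0.17, limma adjusted p = 0.0456). Fabp4 rose by 1.13 (SE 0.21, limma adjusted p = 0.026). Each of the 5 had both TAC libraries on the same side of both baseline libraries, as 21 members in all had with TAC lower, against 22.8% of all genes. At an unadjusted p under 0.05 there were 25 of 41 members, against 16.2% of all genes. The median effect was -0.43 over the members and 0.00 over all genes, and it was -0.19 in the fit without CT baseline or CT TAC and -0.64 without cKO baseline or cKO TAC.

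The residual of this fit has 1 degree of freedom and is the difference between the TAC effects of the genotypes. The error of a member grows with that difference, but limma weighs it against a prior of 10.05 degrees of freedom drawn from all genes. The SE and p of a member thus rest mostly on the mean-variance trend of all genes. With 1 library per group, they do not measure variation between mice of a group. The calls changed with the settings: without the mean-variance trend none of the 5 passed (limma adjusted p = 0.297 to 0.382), scaled to total reads Acot2 and Cpt2 did not, and with 5 CPM added before the logarithm or without a genotype term Ces1d alone passed. For genotype, 0 members passed in limma, where 0.0242% of all genes rose and 0 fell, and 11 of 41 had an unadjusted p under 0.05, against 7.77% of all genes. Crat had the lowest p of these, with a difference of -0.64 between cKO and CT (SE 0.16, limma adjusted p = 0.375) and both cKO libraries below both CT libraries.

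**Figure D4:**
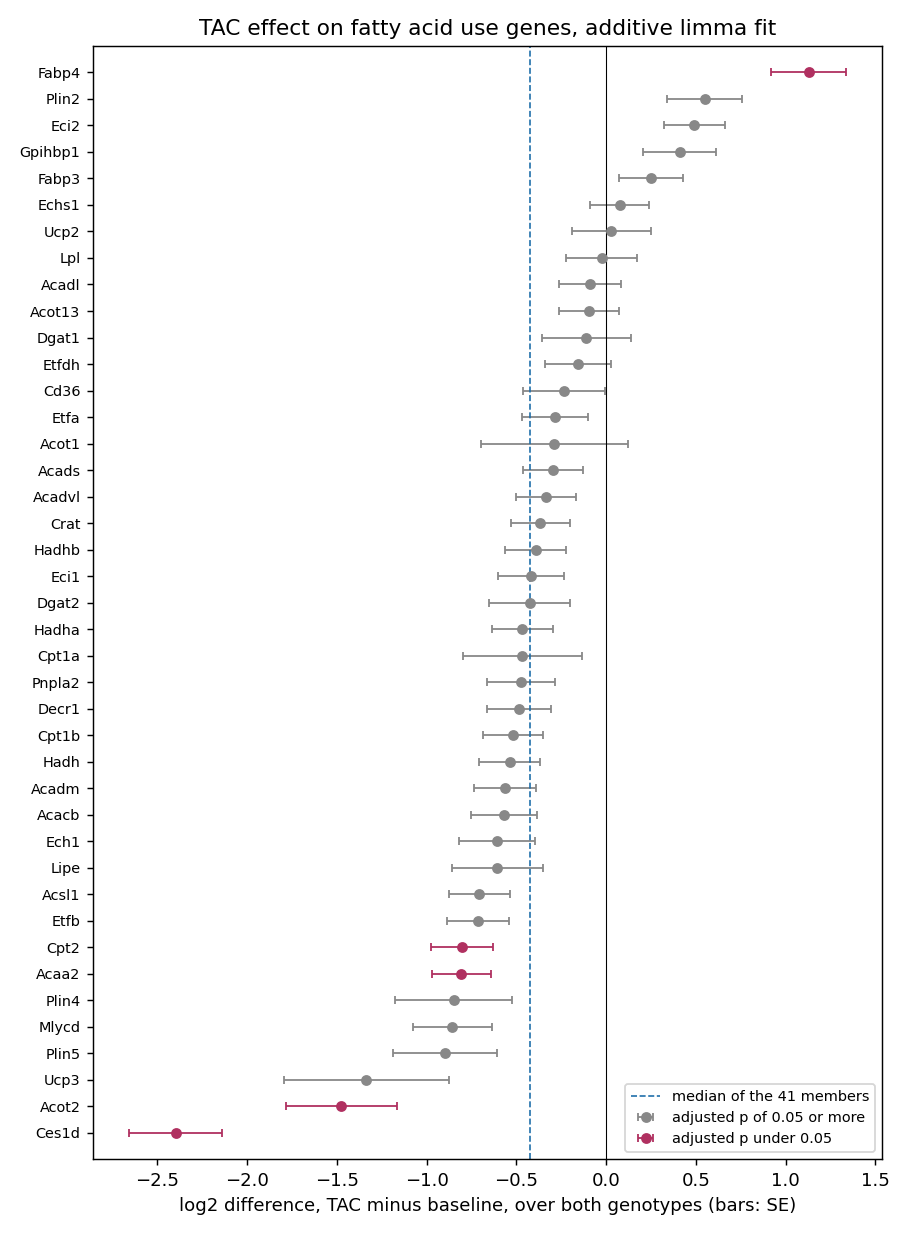
TAC effect (x axis, log2 difference of TAC from baseline over both genotypes, bars show the SE) of the 41 members in the additive limma fit, ordered by size, with the 5 called members in red and the members' median of -0.43 as a dashed line. Ces1d at -2.40 and Fabp4 at 1.13 are the ends of the range.

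The neighbouring pathways were described from lists. In CT TAC over CT baseline, 4.68% of all genes were past 2-fold lower and 6.06% past 2-fold higher. In the fit over both genotypes, 0.524% of all genes fell and 1.3% rose. Of 14 genes of peroxisomal oxidation, which shortens very long chains, 1 was past 2-fold lower after TAC in CT, Ehhadh at -1.02. That count was near the share over all genes, and the list's median was -0.28. Among 16 other genes of mitochondrial acyl-CoA oxidation, Ivd, a dehydrogenase of leucine breakdown, fell over both genotypes by 0.87 (limma adjusted p = 0.0438), and the median in CT was -0.16. Of 13 other uptake and shuttle genes, Angptl4, an inhibitor of lipoprotein lipase, was past 2-fold lower in CT TAC (-1.55), as were the acyl-CoA synthetases Acsl3 (-1.29) and Acsl6 (-1.105), which have shared reads, while the synthetase Acsl5 was past 2-fold higher (1.31). Of 12 other droplet and glyceride genes, Fitm2, which is needed for droplet formation, had the same order as Plin4, with 87.1 CPM at baseline and 19.97 after TAC in CT, and 40.98 and 41.3 in cKO.

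Of 15 regulators, 4 were past 2-fold lower in CT TAC, where 4.68% of all genes were: Ppara (-1.39), Esrra (-1.03), Esrrg (-1.25) and Pdk4 (-2.04). Pdk4, a kinase that restrains glucose oxidation, was by contrast past 2-fold higher after TAC in cKO (1.27) and in cKO TAC over CT TAC (1.31), and past 2-fold lower in cKO baseline than in CT baseline (-2.001). Ppara, the nuclear receptor named above, stood at 110 CPM in the CT heart at baseline and 41.9 after TAC, against 72.8 and 39.2 in the cKO hearts, and fell over both genotypes by 1.14 (limma adjusted p = 0.035). Ppargc1a, the coactivator of these receptors, was at 355 and 267 CPM in CT and at 194 and 209 in cKO, lower by genotype and short of 2-fold. The 16 genes of glucose use had a median of -0.03 in CT, 0 of them past 2-fold, and Ldha, which has shared reads, rose over both genotypes by 0.78 (limma adjusted p = 0.0461). The 99 genes of the respiratory chain and the TCA cycle had a median of -0.20 in CT and -0.08 in cKO. In CT, 4 of them were past 2-fold lower, near the 4.68% of all genes, and 0 higher, where 6.06% of all genes were. Ogdh and Ndufb9 fell in the fit over both genotypes, where 0.524% of all genes did.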

How the data were processed

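Heart RNA was sequenced in 4 libraries, 1 per group. The values deposited by the authors are log2 CPM per gene symbol. Among tools, edgeR, HISAT2 and CASAVA appear in the submitters' processing notes, with mm10 as the build. The sources used here do not give the counter, the annotation or the gene filter. The unit was read from the values, which lie on 1 grid per library after removal of the value of a gene with no read. Dividing by the grid step gave reads that were whole (within 0.01) for 88.6% to 89.0% of genes per library; 2449 genes, among them the members Pnpla2, Lipe and Eci2, had parts of reads.

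Log2 ratios are differences of the deposited values, which carry a small added constant and so understate ratios of genes with few reads. CPM are the recovered reads times the step. Intervals are Clopper-Pearson for ratios, exact Poisson for levels and a normal approximation for differences of log2 ratios. They cover counting error only, and PCR copies are not independent molecules. A count test had been planned if counts were deposited; the log2 values were instead fitted in R 4.3.3 with limma 3.58.1 and its trend option, and calls are at an adjusted p under 0.05. The fit was tried on simulated libraries whose TAC changes were of equal size in both genotypes. That trial does not cover members whose TAC ratio differed between the genotypes. The labels give no batch, and no 2 libraries agreed within sampling noise.

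The members, lists and motifs were chosen with earlier results of these data known. Values in every library were given for members past 2-fold or called in limma and for the member with the most reads in each role. Alternatives were scaling, pseudocount, low-value filter, fold threshold, members with shared reads, the trend and the model terms. Coordinates are RefSeq's on mm10 (GRCm38.p6).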

Additional observations from a re-analysis of the deposited data

Results flagged for a closer look

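Some members had TAC ratios of opposite direction in the 2 genotypes, each with a counting interval that excluded 1, and the difference was not tested. On the log2 scale, cKO minus CT, it was 0.43 for Lpl (-0.24 in CT, 0.19 in cKO), 0.94 for Cd36 (-0.71 and 0.24), 0.55 for Etfdh (-0.43 and 0.12), 0.68 for Ucp2 (-0.31 and 0.37) and -1.88 for Acot1 (0.65 and -1.23).

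Other members had genotype ratios of opposite direction at baseline and after TAC, also with both intervals excluding 1 and no test. The difference, TAC minus baseline, was 0.71 for Gpihbp1, 0.94 for Cd36, 0.86 for Fabp4, 0.56 for Pnpla2, 1.0996 for Lipe, 1.82 for Plin4, 1.33 for Plin5, 1.33 for Cpt1a and -1.88 for Acot1. All of these but Acot1 were lower in cKO than in CT at baseline and higher after TAC. Acot1 was higher at baseline (1.03) and lower after TAC (-0.85). Both contrasts are made of the same 4 libraries, so Cd36 and Acot1 appear in each with 1 value. Lipe and Pnpla2 have shared reads, and Acot1 has few reads and a close copy in Acot2.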

How the results depend on the processing

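At a fold threshold of 1.5 the members past it numbered 23 in CT TAC over CT baseline, where 21.2% of all genes were. In cKO TAC over cKO baseline they numbered 10, where 14.1% of all genes were. There were 13 in cKO baseline over CT baseline and 6 in cKO TAC over CT TAC (10.8% and 12.1% of all genes). The count of 6 was near the share over all genes. At 2-fold these counts were 9, 3, 4 and 1. Under the other settings for scaling, pseudocount, filter and shared reads these counts stayed within 1.5 times. The median of cKO TAC over CT TAC, -0.0792, became 0.0175 when scaled to total reads, and the medians of the other 3 pairs kept their sign. Members called for TAC in limma numbered 0 without the trend, 1 with 5 CPM added, 3 scaled to total reads, 1 without a genotype term and 7 among genes with a mean of at least 5 CPM, against 5. Of all genes in the fit, 0%, 0.790%, 1.28%, 0.161% and 3.35% were called under these settings, against 1.82%. For genotype 0 were called under each setting. Leaving out 1 library leaves no residual degree of freedom, so the median effect is a value with no test: it ranged from -0.64 to -0.19 for TAC and from -0.498 to -0.0792 for genotype. No paired analysis was possible because each group holds 1 library. The causes were not tested. Depth limited Ucp3, Acot1 and Cpt1a most.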
